A study of Homo sapiens with 36 samples.

Results

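LNCaP cells treated with atirmociclib were compared with LNCaP cells treated with AU2-94 at the same concentration, 1 µM, and the same time, 24 h. Both compounds are described by the study as selective inhibitors of the cell cycle kinase CDK4. In its kinase assays AU2-94 was the more selective for CDK4, and atirmociclib inhibited CDK1, CDK2, CDK6, CDK7 and CDK9 more strongly than AU2-94 did. The comparison rests on 6 of the 36 RNA-seq libraries, 3 for each compound, chosen by agent, dose and time in the sample labels. LNCaP is an established, androgen-responsive human prostate cancer cell line that retains the retinoblastoma protein RB. The 3 vehicle libraries of 24 h are shown as a reference level only, and their labels carry the dose 2 µM. A further 2 sets of 6 libraries hold the same pair of compounds at 2 µM for 24 h and at 1 µM for 72 h, and the 72 h wells were seeded with fewer cells than the 24 h wells. The study's methods describe the 3 libraries of a group as biological replicates. Equal concentration does not mean equal potency, and the files used here hold no measure of how strongly each compound engaged CDK4 in these wells.

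As background, CDK4 and CDK6 bind D-type cyclins and phosphorylate RB, which frees the E2F transcription factors to switch on genes for DNA synthesis. Many mitotic genes are switched on later in the cycle by the MuvB complex together with B-MYB and FOXM1. The replication-dependent histone genes, clustered mainly on chromosome 6, are transcribed and their messages kept stable during S phase, when new chromatin is packed. In a bulk culture, fewer cells in a phase of the cycle and less RNA per cell cannot be told apart.

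Summed normalised counts ran from 21174354 to 21415388 with AU2-94 and from 21391850 to 21717627 with atirmociclib. These totals are of values already scaled between libraries and are not whole reads, so the sequencing depth is unknown and only the spread between libraries gives the error. All 11 markers of LNCaP and luminal prostate cells were expressed. The 5 leukocyte markers stayed under 10 in the AU2-94, atirmociclib and vehicle libraries, with a summed level of 3.30 at most. Of the markers of other cell types, COL1A1 was at 314 to 405 in the 6 libraries and 389 to 512 with vehicle, VIM at 77.5 to 182 and 53.3 to 63.5, VWF at 216 to 468 and 257 to 393, and KRT14 at 25 to 60 and 4.35 to 21.3. The defining basal genes KRT5 and TP63 and the fibroblast gene DCN were at 1.01 or less.

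At 1 µM and 24 h the cell cycle programme was lower with atirmociclib than with AU2-94. Of 16137 genes tested, 150 were at least 2-fold lower with atirmociclib at an adjusted p of 0.05 or less (limma), which is 0.93% of the genes tested. In the opposite direction 4 genes passed, or 0.0248%. The median difference over all genes was -0.0036 on the log2 scale. Values of atirmociclib and AU2-94 libraries did not overlap for any of the 154 called genes, against 21.8% of all genes tested. The calls rest on the same libraries, so the lack of overlap describes the called genes and is no separate evidence. With the adjusted p alone, 510 genes were lower (3.16%) and 239 were higher (1.48%), but the higher genes differed little, with a median log2 difference of 0.26 and only 21 at 0.5 or more. The adjusted p alone was more sensitive to single libraries: 484 genes passed it without AU2-94 replicate 1, 484 without AU2-94 replicate 3 and 498 without atirmociclib replicate 3, against 749 with all libraries.

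**Figure D1:**
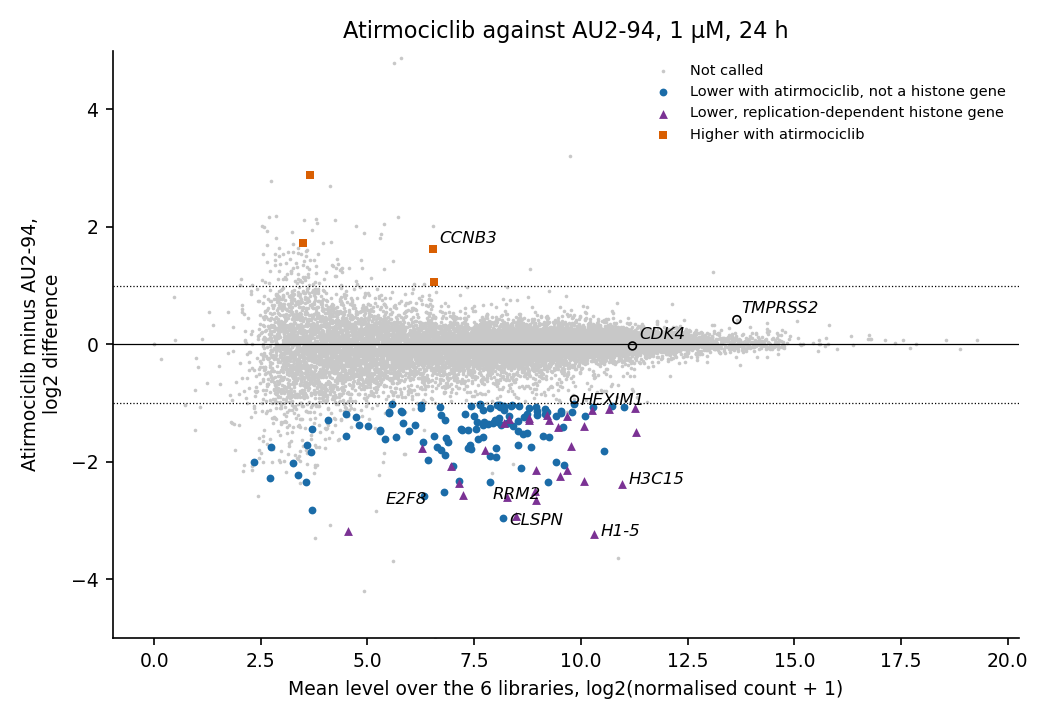
Each point is a gene, with its mean level over the 6 libraries on the horizontal axis and the log2 difference, atirmociclib minus AU2-94, on the vertical axis. Dotted lines mark a 2-fold difference, open circles mark named genes that were not called, and 1 gene lies beyond the vertical axis. The 150 called lower genes spread over low and high levels, while only 4 genes are called higher.

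Of the 150 lower genes, 91 belong to 6 lists of cell cycle genes (histones, DNA replication, mitosis, RB with E2F and MuvB, cyclins and CDKs, and homologous recombination) and 59 to none of them. Most were at an intermediate level with AU2-94. In 140 of them the vehicle mean was highest, the AU2-94 mean lay between and the atirmociclib mean was lowest. Their median level was 38.2% of vehicle with AU2-94 and 14.3% of vehicle with atirmociclib. In 8 genes AU2-94 was above vehicle and atirmociclib below it, and in 2 genes, GBP1 and DLX3, both compounds were above vehicle. These positions relative to vehicle describe the means and were not tested.

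**Figure D2:**
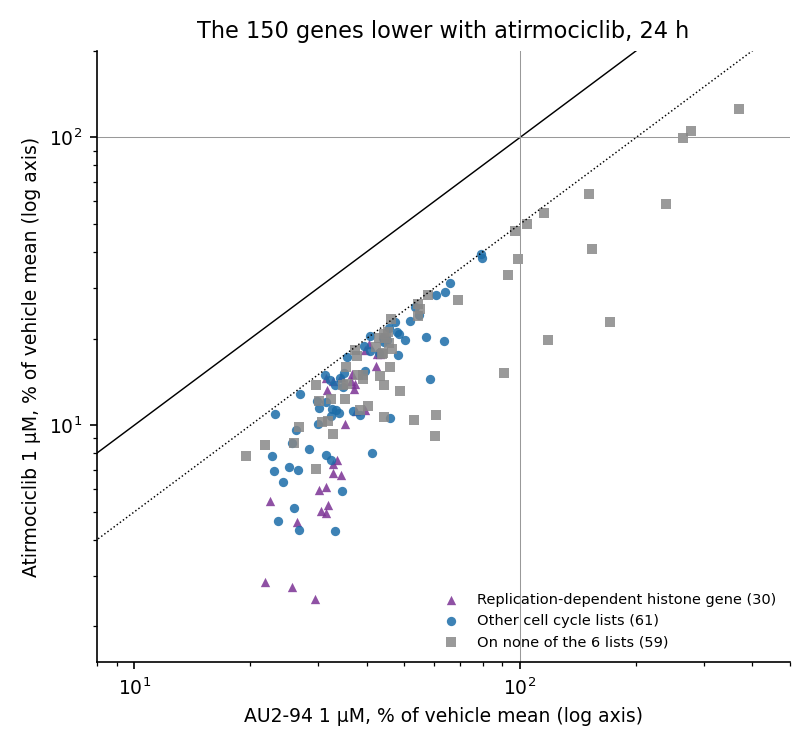
Each point is one of the 150 genes lower with atirmociclib, placed by its mean level as a percentage of the 24 h vehicle mean with AU2-94 (horizontal, log axis) and with atirmociclib (vertical, log axis). The solid line marks equal levels and the dotted line a 2-fold difference. Histone genes fill the lower left, down to 2.5% of vehicle with atirmociclib (H3C12).

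Replication-dependent histone genes had the median farthest from 0 among the gene lists. Of 63 histone genes in the list, 52 passed the filter on low values, 45 were lower at the adjusted p and 30 were called, with none higher. Their median log2 difference was -1.28. By type, 2 of 3 tested H1 genes, 10 of 15 H2A genes, 8 of 13 H2B genes, 8 of 11 H3 genes and 2 of 10 H4 genes were called lower. The medians were closer, at -1.079 for H1, -1.498 for H2A, -1.221 for H2B, -1.285 for H3 and -1.187 for H4. All 10 H4 genes were below 0 and 7 were lower at the adjusted p. Their few calls therefore do not show a smaller H4 difference. The 30 genes sit in the known clusters: 26 on chromosome 6 between positions 26020451 and 27893891 (GRCh38) and 4 on chromosome 1. Summed over the 52 genes, the level was 78980, 68371 and 79082 in the AU2-94 libraries and 35501, 36610 and 37643 in the atirmociclib libraries. Vehicle libraries held 189773, 178214 and 180323, so the groups stood apart without overlap.

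H1-5, a linker histone gene, had the largest difference among the named genes. Its normalised counts were 2302, 2087 and 2441 with AU2-94, 242, 269 and 219 with atirmociclib, and 9112, 8968 and 8635 with vehicle. The log2 difference was -3.22 (SE 0.12, adjusted p 1.14e-11), a 9.34-fold lower level with atirmociclib. H2BC14, a core histone H2B gene, was at 629 ± 67.3 with AU2-94 and 81.9 ± 7.60 with atirmociclib (SD, n = 3), against 2878 ± 144 with vehicle. H3C15, an H3 gene on chromosome 1, was at 3358 ± 253 and 651 ± 90.2, and it shares a near-identical transcript with H3C14, so its reads may be split between both. H2BC17, H2BC11, H2AC4, H2AC16 and H2AC12 were also among the 12 largest differences, with log2 differences between -2.36 and -2.66. The linker histone gene H1-4 differed less, at -0.54, with 5196, 4769 and 5443 against 3441, 3459 and 3709; it was picked after its values were seen. Of the 30 called histone genes, 6 have a stretch of at least 100 bases at 98% identity or more in a gene elsewhere, and their counts are less certain for that reason.

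DNA replication genes were lower as a group: 43 of 49 passed the adjusted p in the lower direction and 18 were called, with a median log2 difference of -0.80. All 49 had a difference below 0. CLSPN encodes claspin, an adaptor of the replication checkpoint. Its counts were 529, 482 and 510.0 with AU2-94 and 62.0, 53.5 and 81.0 with atirmociclib, a log2 difference of -2.95 (SE 0.14, adjusted p 1.05e-10). Vehicle stood at 1528 ± 29.0 (SD, n = 3). RRM2, a subunit of ribonucleotide reductase that makes deoxynucleotides, was at 1109, 961 and 951 against 249, 156 and 194, or -2.35 on the log2 scale (SE 0.17). MCM10 and CDC45, which help to start the replication fork, differed by -2.11 (SE 0.13) and -1.79 (SE 0.18). Sliding clamp gene PCNA and thymidylate synthase gene TYMS were also called, at -1.23 and -1.52.

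Promoters of genes that moved together are shown for the letters they share. In the 250 bases before the start site (RefSeq, GRCh38.p14), CCAAT was searched on both strands, where the opposite strand reads ATTGG. It occurred in 25 of the 26 called lower histone genes with a promoter sequence, or 96.2%, and in 14 of 21 other tested histone genes, or 66.7%. Among called lower genes of the other cell cycle lists 41 of 55 held it (74.5%), among the lower genes of no such list 21 of 43 (48.8%), and among all 11513 tested genes with a promoter sequence 35.4%. Over all 27305 promoters in the table the share was 33.0%. TATAAA on the gene's strand occurred in 61.5% of called lower histone genes, 57.1% of other tested histone genes and 3.73% of all tested genes. The E2F-type letters TTTGGCGC or TTTCGCGC, on both strands, occurred in 34.6% of called lower histone genes, 4.76% of other tested histone genes, 7.27% of the called genes of other cell cycle lists, 6 of the 43 lower genes of no such list and 1.73% of all tested genes. TTTGAA or TTTAAA, core letters of the cell cycle homology element, were found on either strand in 46.2% of called lower histone genes, 38.1% of other tested histone genes, 40.0% of the called genes of other cell cycle lists, 20.9% of the lower genes of no such list and 14.3% of all tested genes. These are letter matches, not measured sites. The other tested histone genes are those not called, and they are not an unchanged set. Of 52 tested histone genes, 45 were lower at the adjusted p and 30 were called, so the rest of the 45 fall among them. The last 200 bases before the start of 5 of the genes with large differences are printed 5′ to 3′ on the gene's strand. Capitals mark the letters CCAAT on either strand, the letters TATAAA on the gene's strand and the E2F-type letters on either strand.
H1-5 (chr6:27867589-27867788): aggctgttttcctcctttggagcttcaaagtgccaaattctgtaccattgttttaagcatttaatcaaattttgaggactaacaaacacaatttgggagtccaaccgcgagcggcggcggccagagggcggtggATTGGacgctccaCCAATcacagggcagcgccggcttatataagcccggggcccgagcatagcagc
H2BC17 (chr6:27893225-27893424): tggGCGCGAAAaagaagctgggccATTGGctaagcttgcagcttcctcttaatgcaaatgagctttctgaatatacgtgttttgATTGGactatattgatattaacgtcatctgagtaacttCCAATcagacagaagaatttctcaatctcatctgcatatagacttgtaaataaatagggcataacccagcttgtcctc
H3C15 (chr1:149852408-149852607): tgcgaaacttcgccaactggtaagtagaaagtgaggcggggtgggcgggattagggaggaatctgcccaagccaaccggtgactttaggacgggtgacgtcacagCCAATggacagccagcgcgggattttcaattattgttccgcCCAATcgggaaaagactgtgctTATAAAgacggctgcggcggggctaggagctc
CLSPN (chr1:35769979-35770178): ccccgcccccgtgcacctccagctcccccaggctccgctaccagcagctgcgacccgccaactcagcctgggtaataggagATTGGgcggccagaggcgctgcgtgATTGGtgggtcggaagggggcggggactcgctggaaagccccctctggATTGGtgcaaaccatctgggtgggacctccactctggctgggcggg
RRM2 (chr2:10122539-10122738): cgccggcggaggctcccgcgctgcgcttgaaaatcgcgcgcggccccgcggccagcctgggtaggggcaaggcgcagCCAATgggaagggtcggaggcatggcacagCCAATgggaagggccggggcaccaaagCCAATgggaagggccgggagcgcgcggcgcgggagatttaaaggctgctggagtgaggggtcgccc
H1-5 and CLSPN lie on the minus strand and the other 3 on the plus strand. CCAAT or ATTGG occurs 2 times in H1-5 and in H3C15 and 3 times in H2BC17, CLSPN and RRM2. H3C15 also holds TATAAA, and H2BC17 holds 1 E2F-type match.

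E2F and MuvB genes divided by member. Of 20 tested, 7 were lower at the adjusted p, 5 of them called, and none was higher. The called genes were the activators E2F1 and E2F2, the repressive E2F7 and E2F8, and MYBL2, the gene for B-MYB. E2F8 was at 152, 125 and 133 with AU2-94 and 24.2, 20.2 and 21.7 with atirmociclib, a log2 difference of -2.58 (SE 0.29). E2F7 was at 175, 200 and 187 against 29.0, 32.1 and 35.2, or -2.51 (SE 0.30). E2F1 was at 665 ± 25.1 against 315 ± 9.09 (SD, n = 3), with vehicle at 1008 ± 53.3. FOXM1, whose product drives mitotic genes, differed less, by -0.41 (SE 0.08, adjusted p 0.00393). It stood at 31.6% of vehicle with AU2-94 and 23.7% with atirmociclib. RB1 itself was at -0.27 with an adjusted p of 0.0634 (95% interval -0.44 to -0.10), which passed without atirmociclib replicate 2 (-0.38), with equal totals or with the filter at a mean of 100.

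Mitosis genes were lower in 58 of 66 cases at the adjusted p, and 27 were called, with a median log2 difference of -0.87 and all 66 below 0. KIF20A, a kinesin of cytokinesis, was at 345, 394 and 433 with AU2-94 against 64.8, 86.5 and 78.8 with atirmociclib (log2 difference -2.34, SE 0.22). NUSAP1, a spindle protein gene, CCNA2, the cyclin A2 gene, and AURKB, the Aurora B kinase gene, differed by -2.0, -1.91 and -1.89. For NUSAP1, 86.8% of the exon bases overlap another gene on the same strand, so its counts are less certain. CCNB1, the cyclin B1 gene, did not share the pattern: 1322, 1224 and 1163 against 1131, 1204 and 1085, a log2 difference of -0.12 (95% interval -0.26 to 0.03, adjusted p 0.433). Both compounds held it at a lower level than vehicle, 47.1% and 43.5%, which is given as a description.

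Among genes of homologous recombination and the Fanconi pathway, 22 of 43 were lower at the adjusted p and 10 were called, with a median of -0.44. Over all genes tested, 3.16% were lower at the adjusted p and 0.93% were called lower. EXO1, a nuclease that resects broken ends, was at 298, 208 and 204 with AU2-94 against 53.2, 39.8 and 44.8 with atirmociclib (log2 difference -2.33, SE 0.24). The checkpoint kinase gene CHEK1 differed by -1.34 (SE 0.19). CLSPN is counted in this list and in the replication list.

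**Figure D3:**
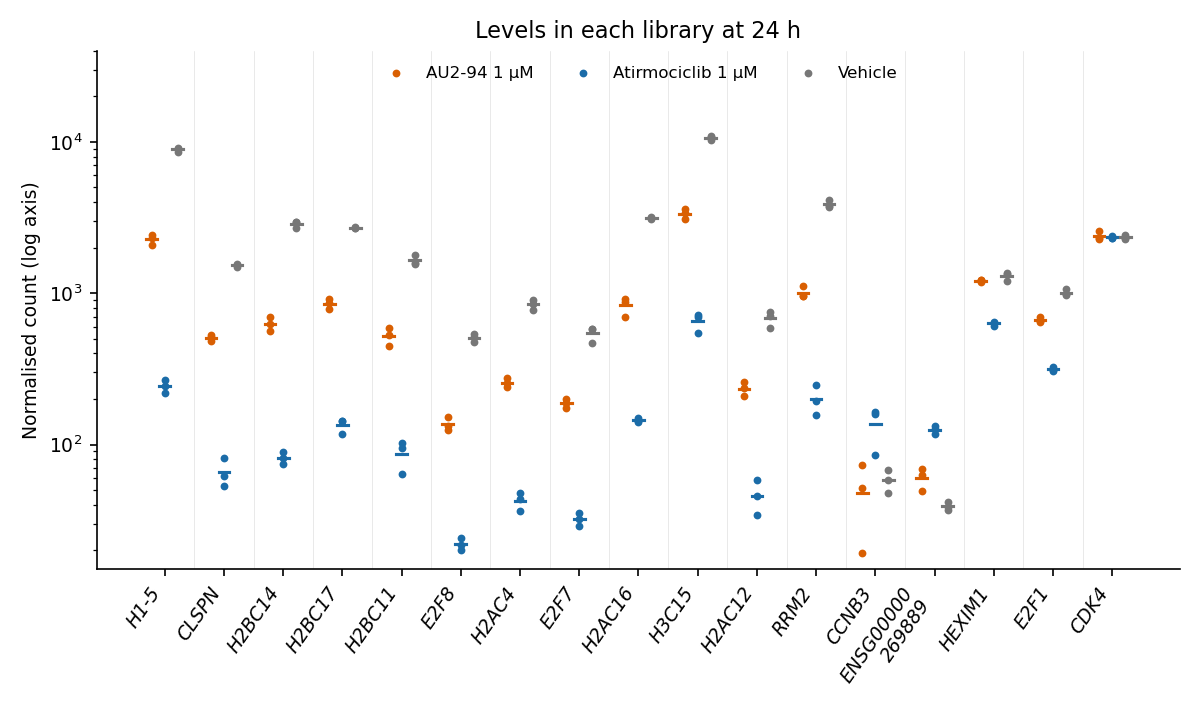
Normalised counts (log axis) of named genes in each of the 9 libraries of 24 h, with points for libraries and bars for group means. In the 12 genes with the largest lower differences, from H1-5 to RRM2, the 3 atirmociclib libraries lie below the 3 AU2-94 libraries, which lie below vehicle. These 12 were picked for no overlap between the compounds, so their separation from AU2-94 was fixed by the choice. CDK4, a reference gene not picked that way, has libraries that overlap.

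Cyclins, CDKs and CDK inhibitors as a list showed no common shift, with 4 of 29 lower, 1 higher and a median of 0.05. Over all genes tested, 3.16% were lower and 1.48% higher. CDK4, the target gene, was at 2324, 2288 and 2560 with AU2-94, 2323, 2328 and 2374 with atirmociclib and 2268, 2328 and 2410 with vehicle. Its log2 difference was -0.03 (95% interval -0.14 to 0.09), and its sign turned without AU2-94 replicate 3 (0.02). CCND1, the cyclin D1 gene, differed by 0.10 (95% interval 0.01 to 0.19, adjusted p 0.228) and stood at 149% and 160% of vehicle. CDK6 was low and scattered, from 35.8 to 214 over the 6 libraries, so its interval was wide (-0.89 to 1.95). CCNE2 and CDKN2C, the genes for cyclin E2 and the INK4 inhibitor p18, were the 2 called members, at -2.07 (SE 0.25) and -1.56 (SE 0.21). CCNE1, for cyclin E1, was at -0.31 (95% interval -0.56 to -0.06, adjusted p 0.172). CDK2 and CCND3 were lower at -0.78 and -0.35 without reaching 2-fold, and the latter lost the adjusted p when only the 6 libraries entered the fit. CDKN1A, the p21 gene, was at 0.28 (95% interval 0.08 to 0.47, adjusted p 0.107).

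HEXIM1 stood out among genes of transcription elongation. Its product holds the kinase P-TEFb, formed by CDK9 and a T-type cyclin, in an inactive complex. HEXIM1 was at 1192, 1228 and 1214 with AU2-94, 637, 609 and 648 with atirmociclib and 1331, 1201 and 1356 with vehicle. The log2 difference was -0.94 (SE 0.06, adjusted p 1.48e-08), just short of the 2-fold threshold. By group means, AU2-94 was at 93.5% of vehicle and atirmociclib at 48.7%. Of 35 genes in the list, 3 were lower and none higher, with a median of 0.01, against 3.16% lower and 1.48% higher of all genes tested. The others were POLR2A, the large subunit of RNA polymerase II, at -0.29 (SE 0.04), and MEPCE, which caps 7SK RNA, at -0.26 (SE 0.06). MEPCE lost the adjusted p without AU2-94 replicate 1 (-0.26), AU2-94 replicate 2 (-0.22), atirmociclib replicate 2 (-0.26) or atirmociclib replicate 3 (-0.23). CDK9 differed by 0.11 (95% interval -0.10 to 0.32).

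**Figure D4:**
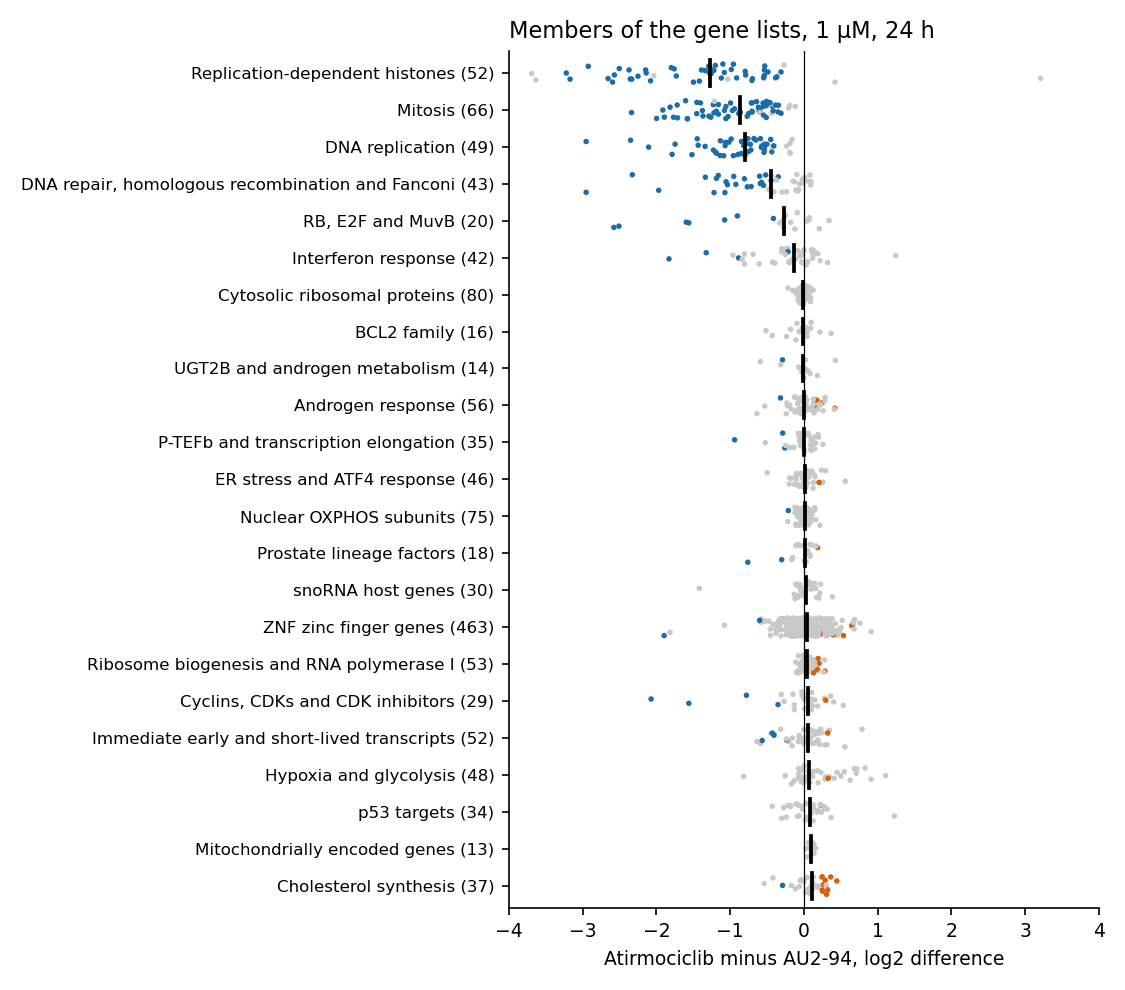
Each point is a list member, placed by its log2 difference, atirmociclib minus AU2-94, with the number of tested members in brackets and black bars for medians. Blue points are lower and orange points higher at an adjusted p of 0.05 or less. Histone, mitosis and DNA replication lists have medians of -1.28, -0.87 and -0.80, while the list medians from cytosolic ribosomal proteins down lie between -0.02 and 0.11.

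Most androgen response genes were close between the compounds at 1 µM and 24 h. KLK3, which encodes prostate-specific antigen, differed by 0.15 (95% interval 0.04 to 0.26, adjusted p 0.131). TMPRSS2, an androgen-induced protease gene, was higher with atirmociclib: 14599, 14983 and 14641 against 10043, 12189 and 10920, with vehicle at 5672, 6056 and 5691. The log2 difference was 0.42 (SE 0.07, adjusted p 0.000668). In the androgen response list of 56 genes, 5 were higher and 1 lower, the polyamine enzyme gene SAT1 (-0.32), with a median of -0.0041. Of all genes tested, 1.48% were higher and 3.16% lower. ADAMTS1 and SLC45A3 were higher by 0.18 and 0.17. ADAMTS1 lost the adjusted p without AU2-94 replicate 1 or 3 or atirmociclib replicate 2 or 3 (0.14 to 0.17), and SLC45A3 without any one of the 6 libraries (0.16 to 0.18). At 2 µM and 24 h, 6 of the 56 were higher and 5 lower, against 5.12% and 4.31% of all genes. At that dose TMPRSS2 (0.17), ADAMTS1 (0.09), SLC45A3 (0.07) and KLK3 (-0.03) did not pass, while SAT1 (-0.52) did. At 1 µM and 72 h, 16 were higher and 2 lower, against 741 and 603 of the 16137 genes tested at 24 h. There TMPRSS2 (0.51), ADAMTS1 (0.39) and KLK3 (0.17) passed, while SLC45A3 (0.11) and SAT1 (0.02) did not.

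Several sterol and fatty acid synthesis genes were slightly higher with atirmociclib at 1 µM and 24 h. In the list named cholesterol synthesis, 9 of 37 were higher at the adjusted p and 1 was lower, with a median of 0.11. Of all genes tested, 1.48% were higher and 3.16% lower. The lower member was FADS1, also a desaturase gene, at -0.29, which lost the adjusted p in some alternatives. LSS, which forms lanosterol, was at 2543 ± 124 with atirmociclib and 1867 ± 121 with AU2-94 (SD, n = 3), a log2 difference of 0.45 (SE 0.07). Also higher were SCD, a fatty acid desaturase gene, at 0.36, FASN, fatty acid synthase, at 0.32, and SQLE, squalene epoxidase, at 0.31. MYC was higher as well, at 9850 ± 584 against 7876 ± 404, a log2 difference of 0.32 (SE 0.06, adjusted p 0.00497). None of these genes reached 2-fold. At 2 µM and 24 h, 16 of the 37 list members were higher and 2 lower, against 5.12% and 4.31% of all genes. At 1 µM and 72 h, 3 were higher and 3 lower. There LSS (0.15), SCD (0.08), FASN (-0.08), SQLE (0.16) and MYC (0.04) did not pass. For FASN the change with time was -0.40 (limma, adjusted p 0.00209).

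In all, 4 genes were called higher. CCNB3, a cyclin gene best known from meiosis, was at 163, 85.3 and 160.0 with atirmociclib and 19.1, 73.5 and 51.6 with AU2-94, against 58.0 ± 9.75 with vehicle. The log2 difference of 1.62 (SE 0.43, adjusted p 0.0354) did not pass without AU2-94 replicate 1 (1.07), AU2-94 replicate 3 (1.77), atirmociclib replicate 1 (1.46) or atirmociclib replicate 3 (1.48). The long non-coding gene ENSG00000269889 was at 126, 132 and 118 against 49.4, 62.9 and 68.7, a log2 difference of 1.06 (SE 0.16), and slipped under 2-fold without AU2-94 replicate 1 (0.92). ENSG00000227782 and PANK1-AS1 were low, with means of 16.0 and 20.6 with atirmociclib. With the replicate number as a block, 2 genes were called higher rather than 4, while 148 were called lower, 146 of them among the 150.

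Several of the 59 genes outside the cell cycle lists are known cell cycle genes, and the examples here were chosen after their values were seen. FAM111B, a protease gene, was at 1232, 1211 and 1300.4 with AU2-94 and 254, 337 and 310 with atirmociclib (log2 difference -2.06). HMGB2, a chromatin protein gene, and HELLS, a chromatin remodeller gene, differed by -1.59 and -1.17. ERAP1, an aminopeptidase gene that trims antigenic peptides, was at 507 with AU2-94, 243 with atirmociclib and 487 with vehicle. Of all 150, 24 had a mean under 50 over the 6 libraries.

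At 2 µM and 24 h, in other libraries, 148 genes were called lower with atirmociclib than with AU2-94 (0.917% of those tested) and 6 higher. Of these, 57 were also among the 150, which is 38.0% of the 1 µM list and 38.5% of the 2 µM list, and 124 of the 150 were lower at the adjusted p alone (4.31% of all genes). No called higher gene was shared. At the adjusted p alone 827 genes were higher at 2 µM (5.12%). They include ENSG00000269889, at 0.69 (limma, adjusted p 0.00881), whereas CCNB3 was at -0.0026 at 2 µM. The histone median was -0.92 at 2 µM, the DNA replication median -0.53 and the mitosis median -0.43. Tested directly, the difference between doses passed the adjusted p in 7 of 16137 genes (0.0434%), all above 0, meaning nearer to 0 or higher at 2 µM. None of the 7 reached 2-fold, and 1537 genes had an unadjusted p under 0.05. Of these 7, MYBL2 had the largest change, from -1.56 at 1 µM to -0.58 at 2 µM (difference 0.98, SE 0.13, adjusted p 0.00928). TYMS went from -1.52 to -0.65 and NUSAP1 from -2.0 to -1.10. HEXIM1, not among the 7, was at -1.38 at 2 µM, and its dose difference of -0.44 did not pass (limma, adjusted p 0.108). The count of 7 depended on single libraries, from 0 without AU2-94 1 µM replicate 3 to 27 without AU2-94 2 µM replicate 3, and stayed within 1.5 times only without atirmociclib 2 µM replicate 2 (6).

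At 1 µM and 72 h, 73 of 16341 genes were called lower with atirmociclib (0.447%) and 21 higher. Of the 73, 29 were among the 150, or 39.7% of the 72 h list and 19.3% of the 24 h list. The adjusted p alone was passed in the lower direction by 111 of the 149 genes tested at both times (3.7% of all genes at 72 h). Time and seeding density changed together and cannot be told apart. The change of the compound difference from 24 h to 72 h passed the adjusted p in 321 of 16850 genes (1.91%), 256 above 0 (1.52%) and 65 below. At a 2-fold change or more, 45 genes were above 0 (0.267%) and 11 below. With one library left out, the 11 ran from 3, without AU2-94 72 h replicate 3, to 11, and the 321 fell to 207 without atirmociclib 72 h replicate 2. By list, and always above 0, it passed in 24 of 49 DNA replication genes, 22 of 52 histone genes and 6 of 43 recombination and Fanconi genes. In the mitosis list 18 genes were above 0 and 1 below, of 66.

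H1-5 illustrates the difference in time. Its mean went from 2277 ± 179 at 24 h to 4765 ± 145 at 72 h with AU2-94 and from 243 ± 25 to 1952 ± 60.0 with atirmociclib (SD, n = 3), while vehicle stood at 8905 ± 245 and 11153 ± 332. The log2 difference was -3.22 at 24 h and -1.29 at 72 h (change 1.94, SE 0.13, adjusted p 7.65e-11). CLSPN went from -2.95 to -0.94 (change 2.02, SE 0.17). HEXIM1 went from -0.94 to -0.28 (adjusted p 1.7e-05 for the change). CDKN1A went from 0.28 to -0.55 (adjusted p 1.89e-05 for the change), so that at 72 h it was lower with atirmociclib. E2F8 and E2F7 stood at -1.40 and -1.12 at 72 h, and their change did not pass the adjusted p (0.14 and 0.0963).

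**Figure D5:**
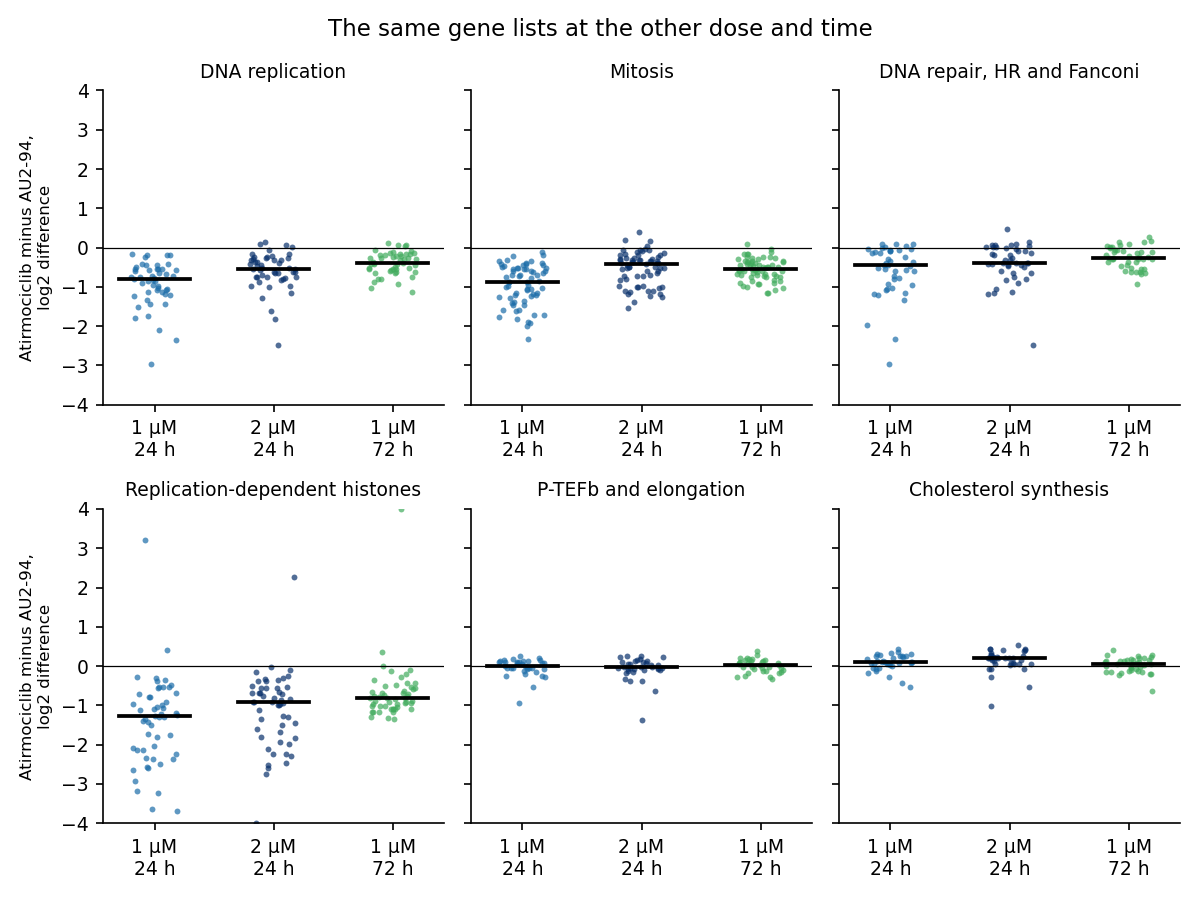
Log2 differences, atirmociclib minus AU2-94, of all tested members of 6 gene lists at 1 µM 24 h, 2 µM 24 h and 1 µM 72 h, with black bars for medians; 2 points beyond the axis are drawn at its edge. The DNA replication median is -0.80, -0.53 and -0.40 in that order, and the histone median -1.28, -0.92 and -0.81.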

How the data were processed

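RNA of 36 LNCaP libraries, 12 groups of 3, was sequenced as total RNA. Per the study's methods, the authors aligned reads to GRCh38 with STAR 2.6.1d within an nf-core pipeline and analysed counts with DESeq2. The deposited values are normalised counts per gene, a linear signal that is not whole numbers; how each value was scaled is not given in the sources used here. Of 29872 genes in the table, 29856 matched GENCODE 44 by identifier. Genes with a value of at least 10 in 3 or more of the 18 libraries of 24 h were tested on log2(value + 1) with limma 3.58.1 (R 4.3.3, trend, 6 groups in one fit), and p-values were adjusted by Benjamini-Hochberg over all genes tested. A gene was called at an adjusted p of 0.05 or less and a log2 difference of at least 1. Fold changes are on the log2(value + 1) scale and understate those of low genes. The 1 µM 72 h contrast used the 18 libraries of 72 h, and the change with time all 36. Intervals are 95%.

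Named genes were the 12 largest differences per direction among called genes with a mean of at least 50 and no overlap, a set of reference genes, and up to 4 per list and direction past the adjusted p; some genes that the rule names are not reported here. Members, lists and tests were chosen with earlier results of these data known. The replicate number stands in a field named batch in the labels, so pairing by it was checked. The main fits did not pair libraries, and the replicate block entered only as an alternative. Between libraries of both compounds with the same number, the correlation of deviations was 0.014, -0.026 and 0.024 for replicates 1 to 3. Alternatives were other pseudocounts, filters and scalings, the replicate block, no trend, only the 6 libraries, and leaving out each library. Scripts were tested on simulated data. Near-identical transcripts were searched with BLAST+ 2.17.0, and promoter sequences came from RefSeq (124 of 150 lower genes matched). Whether the counting used strand is not given in the sources used here. Of the 150 genes, 52 have some exon overlap on the opposite strand. In 5 of them most exon bases overlap another gene on the same strand: H3C4 (96.6%), NUSAP1 (86.8%), H2AC7 (85.3%), H2AC17 (71.1%) and MND1 (55.5%). MEPCE, not called, stands at 61.3%. Counts of these genes are less certain for that reason.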

Additional observations from a re-analysis of the deposited data

Results flagged for a closer look

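The compound difference at 24 h was not the same at both doses for 7 genes past the adjusted p (limma). Of the named genes, MYBL2 changed by 0.98 and NUSAP1 by 0.90 on the log2 scale, both nearer to 0 at 2 µM.

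Between 24 h and 72 h the compound difference changed by 2-fold or more in 45 genes above 0 and in 11 below. Among named histone genes the change was 1.94 for H1-5, 1.76 for H2BC14, 1.61 for H2BC17, 1.66 for H2BC11, 1.40 for H2AC4, 1.32 for H2AC16, 1.54 for H3C15, 1.55 for H2AC12 and 2.17 for H3C12, the last at a mean of 3.46 with atirmociclib at 24 h. Genes of replication, repair and the cyclins changed by 2.02 (CLSPN), 1.55 (RRM2), 1.60 (MCM10), 1.53 (CDC45), 1.66 (EXO1), 1.38 (CCNE2) and 1.07 (CCNA2). The kinesin gene KIF20A changed by 1.19 and the zinc finger gene ZNF367 by 1.15. All of these genes were lower with atirmociclib at 24 h, so each change is towards a smaller difference at 72 h. The genes were named because their difference at 24 h was large, and that choice alone favours a smaller value at the other time. Single outlying libraries were not tested for in groups of 3.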

How the results depend on the processing

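The count of 150 genes lower with atirmociclib stayed within 1.5 times in every alternative, from 119 with a mean of at least 100 to 155 with equal totals, and from 134 to 159 when one library was left out. The count of 4 higher genes was 8 with no filter on low values, 0 with a mean of at least 100, 7 with quantile normalisation, 2 with the replicate block and 2 with only the 6 libraries; with one library left out it ran from 3 to 7, the 7 without AU2-94 replicate 2. The 749 genes past the adjusted p became 468 with only the 6 libraries and 484 to 720 with one library left out. For the dose difference, the 7 genes past the adjusted p became 3 with no filter, 13 with a mean of at least 100 and 2 with no trend, and 0 to 27 with one library left out, where 0 to 1 gene reached 2-fold in either direction. For the time difference, the 11 genes below 0 became 4 with no filter and 3 with a mean of at least 100; with one library left out they ran from 3 to 11, those above 0 from 31 to 47 and those past the adjusted p from 207 to 328. The replicate block changed the calls of OAS1, STS, ID2, DDX60 and DTX3L among the named genes and no other; the counts with it were 148 lower genes, 5 for the dose difference and 44 above 0 and 8 below for the time difference.

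Of 84 named genes, 54 kept direction and side of the threshold under every alternative, and 29 of the 32 called ones did. CDK4, never past the threshold, ran from -0.0592 to 0.0219 with one library left out, above 0 without AU2-94 replicate 3. Of 23 list medians, 10 changed sign under some alternative, in 27 of 368 values and never beyond 0.0339 on the opposite side. In 6 of the 27 the shift was at least the spread between libraries. With one library left out the P-TEFb median ran from -0.0238 to 0.0236, immediate early genes from -0.0126 to 0.0876 and the BCL2 family from -0.0363 to 0.0312. The androgen response median was 0.0156 with a mean of at least 100, and ER stress was at -0.00964 with equal totals and -0.013 with quantile normalisation. The median of mitochondrially encoded genes was 0 with quantile normalisation. The causes were not tested. Sequencing depth is unknown, so precision rests on 3 libraries a group.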

Other observations

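Some gene groups outside the cell cycle lists had single members that differed. In the interferon response list 4 of 42 genes were lower with atirmociclib and none higher, against 3.16% and 1.48% of all genes tested. OAS3, which makes oligoadenylates in response to viral RNA, was at 326, 239 and 339 with AU2-94 and 132, 106 and 118 with atirmociclib (log2 difference -1.32, SE 0.16), against 647 with vehicle. OAS1 was low, at 19.0 and 4.67, and kept its call in 4 of 15 alternatives. Among immediate early and short-lived transcripts, ID2, ID1 and ID3, inhibitors of differentiation factors, were lower by 0.57, 0.43 and 0.41 on the log2 scale, and all 3 lost the adjusted p without AU2-94 replicate 1 (-0.36, -0.39 and -0.39) or atirmociclib replicate 1.

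Several housekeeping groups held few or no members past the adjusted p at 1 µM and 24 h. None of 80 cytosolic ribosomal protein genes and none of 30 snoRNA host genes passed, and 1 of 75 nuclear OXPHOS genes did. All 13 mitochondrially encoded genes were above 0, with a median of 0.09, and none passed; with quantile normalisation the median was 0. At 2 µM 10 of the 13 were higher at the adjusted p, against 5.12% of all genes tested, with a median of 0.22. In ribosome biogenesis 5 of 53 genes were higher, with a median of 0.04, and among 463 zinc finger genes 6 were higher and 2 lower. Of all genes tested, 1.48% were higher and 3.16% lower. At 2 µM 13 of the 53 ribosome biogenesis genes and 13 of the 75 nuclear OXPHOS genes were higher, against 5.12% of all genes. None of 16 BCL2 family genes, regulators of apoptosis, passed, MCL1 at 0.09 (95% interval -0.02 to 0.21) among them. One of 34 p53 targets was higher, TP53INP1, at 0.23 (SE 0.04).

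By structure, 32 of the 150 lower genes (21.3%) had their exons in a single block, as histone genes do, against 9.56% of all genes tested; 6 of the 32 were not replication-dependent histone genes. Long non-coding genes made up 4.67% of the lower genes and 20.1% of those tested. VWF, a marker of endothelium that LNCaP libraries here also contained, was at 426, 468 and 291 with AU2-94 and 256, 216 and 248 with atirmociclib (log2 difference -0.69, adjusted p 0.054), and the 2 other endothelial markers were under 10.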
